A study of Mus musculus with 6 samples.

Results

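Mevalonate is built into farnesyl diphosphate, and farnesyl diphosphate is used for much more than sterols. The 10 genes described here serve those other uses: Ggps1, Dhdds, Dolk, Pdss1, Pdss2, Coq2, Fnta, Fntb, Pggt1b and Icmt. They were chosen by gene symbol as enzymes and enzyme subunits of protein prenylation, dolichol synthesis and ubiquinone synthesis. All 10 were found among the 17463 genes of the deposited tables and all 10 passed the filter on low counts, which kept 11277 genes.

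Erythroblasts without TER119, a surface protein that red cell precursors gain as they mature, were purified from the fetal liver of C57BL/6J mice. They then grew for 30 h in Epo medium (erythropoietin drives their terminal maturation), either with 40 µM cholesterol (cholesterol, n = 3) or without it (control, n = 3), and according to the methods of the study the TER119+ cells were then sorted for RNA-seq. The labels call the controls untreated and a legend of the study calls them vehicle-treated. Samples were numbered 1 to 3 in each group, and neither the labels nor the methods say whether a number is a litter, a culture or a day, so p-values measure the spread between these samples, which may be technical. The legend of the figure that includes the RNA-seq gives its data as coming from 3 independent experiments, without saying how the sample numbers relate to them.

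Farnesyl diphosphate stands at a branch point. Squalene synthase (Fdft1) commits it to sterols, geranylgeranyl diphosphate synthase (Ggps1) lengthens it for the prenylation of Rab and other small GTPases, and other prenyltransferases extend it into the long chains of dolichol, the sugar carrier of N-glycosylation, and of ubiquinone, the electron carrier of the respiratory chain. Cholesterol is known to shut down the genes of its own synthesis through the SREBP2 transcription factor, and mevalonate is needed for all of these products. The comparison of cholesterol with control therefore asks which branches beyond farnesyl diphosphate moved with the supply enzymes.

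Levels are given as CPM, the expected count of a gene relative to the library total after TMM normalization, with libraries of 19826849 to 20061724 counts. Before TMM scaling, 3 counts in these libraries correspond to 0.150 to 0.151 CPM. The TMM factors, from 0.965 (control 3) to 1.02 (cholesterol 1), shift this limit slightly on the scale of the printed CPM. Each of the 10 genes had at least 111 expected counts in every sample. The defining genes of the labelled cell type were present: the 13 erythroblast markers, globins included, summed to 169565, 158006 and 211203 CPM in the controls and to 142481, 148246 and 188873 CPM in the same-numbered cholesterol samples. Of the 13, 12 were lower with cholesterol in all 3 pairs, as were 20.1% of all genes. Of the same 13, 4 (Hba-a2, Hbb-bs, Alas2 and Tfrc, named after their values were seen) were called lower by edgeR with the replicate number as a block. In that model 5.20% of all genes were called lower. Markers of other cells were also present, although the methods describe a TER119 sort, and those of white cells differed with both group and number. The 9 granulocyte markers summed to 70.4, 253 and 674 CPM in controls 1, 2 and 3 and to 40.5, 110 and 281 CPM in the same-numbered cholesterol samples, with none of the 9 at 0 in all samples. The 9 macrophage markers summed to 18.6 to 131 CPM in the controls and 13.9 to 61.7 CPM with cholesterol, with none at 0. The 7 mast cell and basophil markers summed to 1.47 to 18.5 CPM in the controls and 0.49 to 2.86 CPM with cholesterol, with Tpsb2 at 0 in all samples, and the 2 of the 7 that passed the filter, Cpa3 and Mcpt8, were both called lower with the block. Of the 9 macrophage markers, 8 were lower with cholesterol in all 3 pairs and 5 were called lower with the block, while Cd5l, at 3.83 CPM or less in every sample and also named after its values were seen, was called higher with the block. The 6 hepatocyte markers summed to 112, 93.5 and 268 CPM in the controls and 195, 64.9 and 227 CPM with cholesterol, with 0 of 6 lower in all pairs. The 6 megakaryocyte markers summed to 64.2 to 83.3 CPM in the controls and 60.7 to 69.3 CPM with cholesterol, with 1 of 6 lower in all pairs and 1 of 6, Itga2b, called lower with the block. The part of these cells and of the erythroblast markers in the values below was not tested, and in bulk RNA fewer cells of a type and less RNA per cell cannot be told apart.

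The sequences upstream of the genes are shown first, since the branch genes and the supply enzymes are set side by side below. RefSeq promoters (250 bases before to 50 bases after the start, build GRCm38.p6) were at hand for 8 of the 10 genes, Fnta and Pggt1b having no entry. The 9 letters TCACNCCAC, a form of the sterol regulatory element, were searched on both strands and overlap neither of the other motifs. They occurred in 0 of the 8 promoters and in 408 of all 32851 promoters (1.24%). Among the 6 promoters at hand for the supply enzymes, of 5 genes, they occurred in that of Hmgcs1 only. The CCAAT box, at which NF-Y binds next to SREBP2 in many sterol genes, was found in 2 of the 8 promoters, in 5 of the 6 supply promoters and in 37.4% of all promoters. The GC box (GGGCGG) was found in 5 of the 8, in 4 of the 6 and in 35.7% of all. A match of these letters is a description and not a site of binding, and a window without them says nothing of the factor.

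Ggps1 and Dhdds are printed as the 2 branch genes with CCAAT boxes, Fntb as the most abundant branch gene, and Hmgcs1, HMG-CoA synthase, as the supply enzyme with the sterol element. Capitals mark the CCAAT box, on either strand, and the sterol element, and each sequence runs 5′ to 3′ on the strand of its gene. The regions are chr13:14063439-14063738 (minus strand) for Ggps1, chr4:134000833-134001132 (minus) for Dhdds, chr12:76837217-76837516 (plus) for Fntb and chr13:119690101-119690400 (plus) for Hmgcs1. The RefSeq start of Fntb lies inside the span that GENCODE gives for the gene, so its window precedes that start and not the GENCODE gene as a whole.
Ggps1: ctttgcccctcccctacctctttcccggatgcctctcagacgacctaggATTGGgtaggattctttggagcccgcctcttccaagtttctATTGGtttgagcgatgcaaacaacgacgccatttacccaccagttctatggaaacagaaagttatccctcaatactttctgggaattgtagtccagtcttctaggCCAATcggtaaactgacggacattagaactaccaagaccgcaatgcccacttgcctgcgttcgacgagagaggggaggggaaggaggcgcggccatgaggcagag
Dhdds: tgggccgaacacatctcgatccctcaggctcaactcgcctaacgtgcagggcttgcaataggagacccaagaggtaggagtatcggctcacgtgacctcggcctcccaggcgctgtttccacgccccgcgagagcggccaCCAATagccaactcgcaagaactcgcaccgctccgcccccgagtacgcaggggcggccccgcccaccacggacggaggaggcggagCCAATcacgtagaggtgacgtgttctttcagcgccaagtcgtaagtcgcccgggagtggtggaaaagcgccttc
Fntb: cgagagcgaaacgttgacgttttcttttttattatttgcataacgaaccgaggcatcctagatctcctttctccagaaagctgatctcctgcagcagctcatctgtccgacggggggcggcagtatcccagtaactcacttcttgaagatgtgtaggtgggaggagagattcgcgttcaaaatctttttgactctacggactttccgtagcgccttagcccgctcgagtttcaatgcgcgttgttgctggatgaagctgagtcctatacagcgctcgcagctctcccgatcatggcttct
Hmgcs1: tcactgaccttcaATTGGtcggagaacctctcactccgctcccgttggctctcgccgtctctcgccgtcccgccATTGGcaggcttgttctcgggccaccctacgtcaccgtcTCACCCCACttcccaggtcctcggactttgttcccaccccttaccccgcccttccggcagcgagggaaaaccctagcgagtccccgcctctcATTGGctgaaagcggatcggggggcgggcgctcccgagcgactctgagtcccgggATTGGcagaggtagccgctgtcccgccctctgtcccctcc
The Ggps1 window held 3 CCAAT boxes, which began 201, 160 and 55 bases before the start. The Dhdds window held 2, at 110 and 24 bases before the start, and the Fntb window none. The sterol element of Hmgcs1 began 137 bases before the start, between CCAAT boxes at 176 and 45 bases.

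None of the 10 branch genes passed a test of cholesterol against control. In the same samples the 6 supply enzymes described below were lower in all 3 pairs. Of those 6, 0 were called with condition alone and 3 with the replicate block. In the edgeR quasi-likelihood test with condition alone and Benjamini-Hochberg adjustment over all genes, 0 of the 10 had an adjusted p under 0.05, where 0.00887% of all genes tested (1 gene, which was higher) were called. An unadjusted p under 0.05 was found for 0 of the 10, beside 2.63% of all genes. DESeq2 also called 0 of the 10, beside 0.248% of all genes lower and 0.0266% higher. With the replicate number as a block, which compares same-numbered samples, 0 of the 10 were called in either direction, where 5.20% of all genes were called lower and 1.65% higher. The control and cholesterol values of every one of the 10 overlapped, whereas the groups did not overlap for 4.28% of all genes with lower and 3.72% with higher values in the treated samples. The log2 fold changes ran from -0.09 (Pdss2) to 0.12 (Pdss1), with 4 above and 6 below 0. Their median was -0.02, beside 0.01 over all genes, and the median size was 0.05, beside 0.09 over all genes. A p above the threshold does not show that levels were equal, so intervals are given: over the 10 genes the 95% confidence intervals reached from -0.52 (Pdss2) to 0.44 (Pdss1) with condition alone, and from -0.34 to 0.34, for the same genes, with the block.

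**Figure D1:**
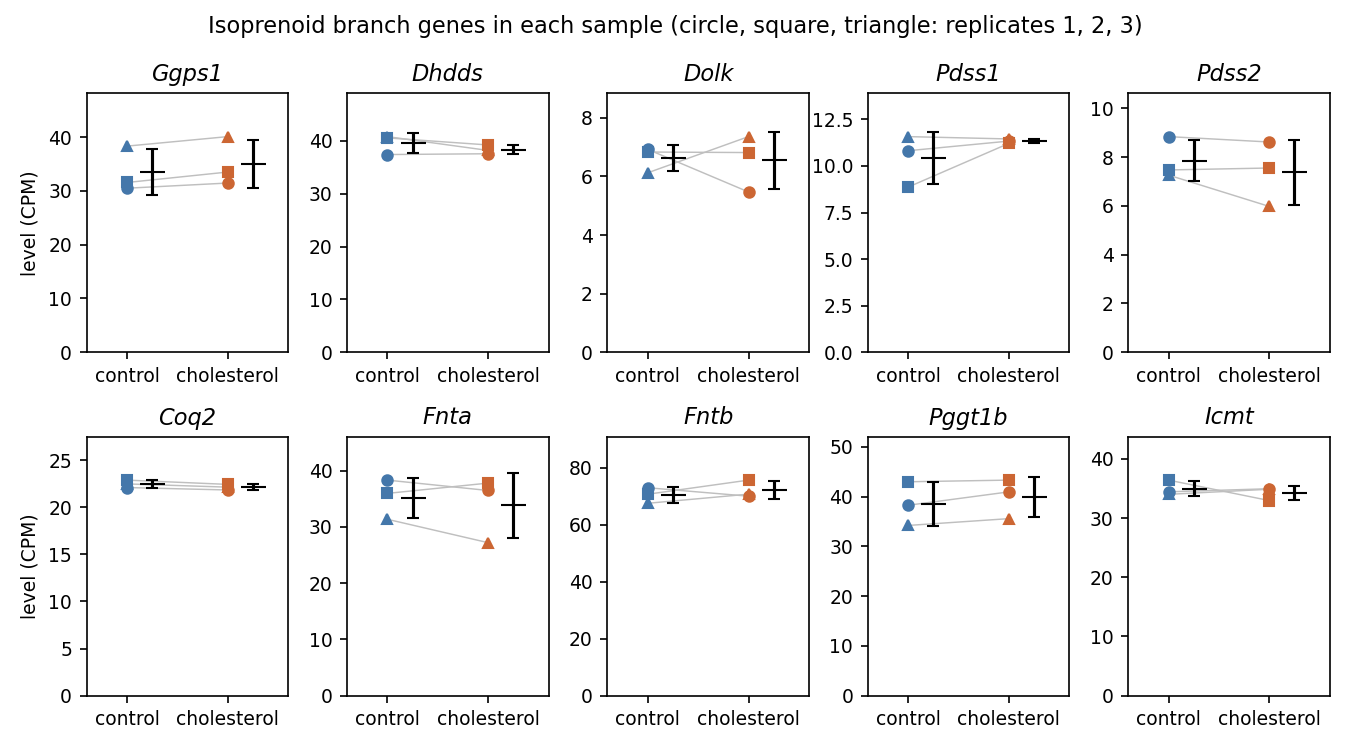
Level of each of the 10 genes in CPM in the 3 control (blue) and 3 cholesterol (orange) samples, on axes that start at 0. Circles, squares and triangles are replicates 1, 2 and 3, grey lines join same-numbered samples, and the bars beside them are the mean and SD (n = 3). The groups overlap in all 10 panels, and for Ggps1, Pdss1, Pdss2, Fnta and Pggt1b the triangle is the highest or the lowest point of both groups.

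The supply enzymes described here were lower with cholesterol in every same-numbered pair, but not all of them passed a test. The 6 enzymes described are Hmgcs1, HMG-CoA synthase, then Mvk, Pmvk, Mvd and Idi1, which act on mevalonate and its products, and Fdps, the synthase of farnesyl diphosphate. Hmgcs1 had 61.4, 47.6 and 25.6 CPM in the controls and 11.7, 10.9 and 9.66 CPM with cholesterol. Mvd, mevalonate diphosphate decarboxylase, had 15.2, 9.46 and 4.98 CPM in the controls and 2.42, 2.37 and 1.74 CPM with cholesterol. Both sets of values were separate, with control 3 nearest to the treated samples. The 6 log2 fold changes lay between -2.18 and -0.69 with a median of -1.40. Each of the 6 was lower in all 3 pairs, as were 20.1% of all genes. For 5 of the 6 the groups did not overlap, as for 4.28% of all genes with lower treated values. The groups of Idi1 overlapped, and its adjusted p was 0.392 in edgeR with the block and 0.635 in DESeq2. Each of the 6 had an unadjusted p under 0.05, but 0 of the 6 passed the adjusted threshold of edgeR with condition alone. With the replicate block 3 of the 6 were called lower (adjusted p of edgeR 0.0399 for Mvk, 0.00387 for Pmvk and 4e-06 for Mvd), and DESeq2 called 3, Hmgcs1, Mvd and Fdps. The feedback on these genes was known from earlier results of the same samples, so the values stand here only as a measure for the branches.

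**Figure D2:**
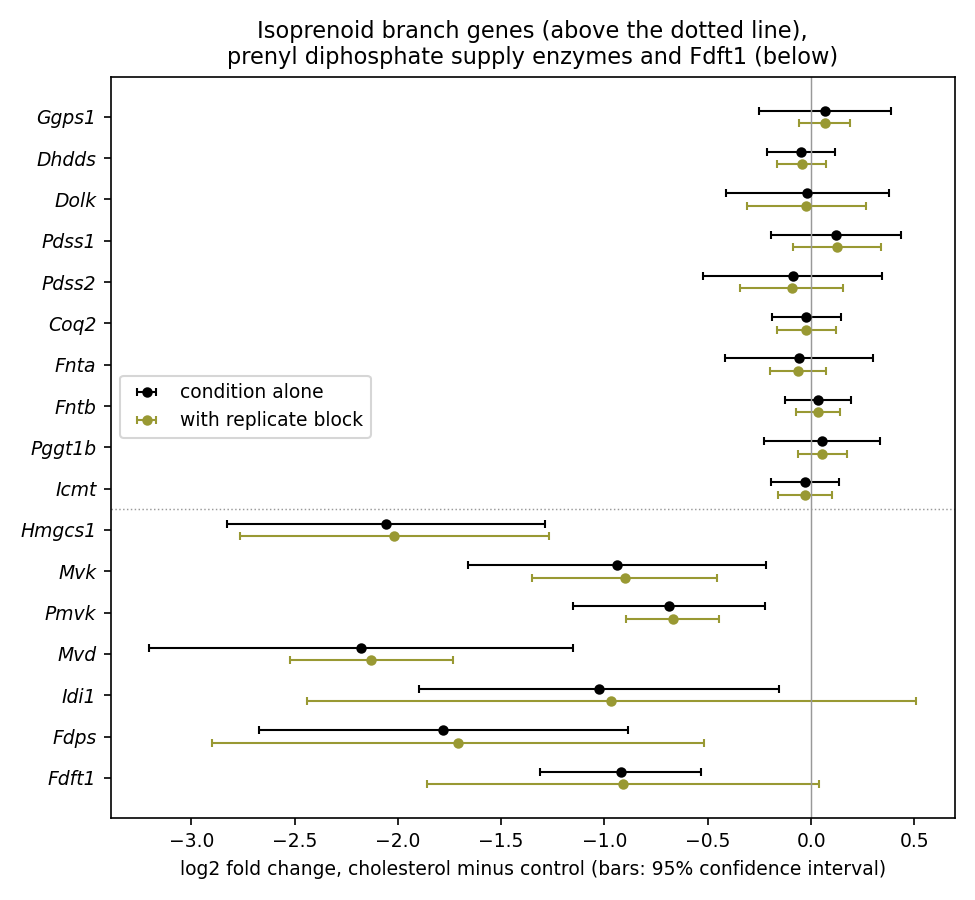
Log2 fold change (cholesterol minus control) of the 10 branch genes, above the dotted line, and of the 6 supply enzymes and Fdft1, below it, with 95% confidence intervals from edgeR with condition alone (black) and with the replicate block (olive). All intervals of the branch genes span 0, and with condition alone all 7 genes below the line have fold changes of -0.69 or lower.

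At the branch point itself, Ggps1 differed little between the groups, while Fdps before it and Fdft1 beside it were lower with cholesterol in every pair. Ggps1 (GRCm38 chr13:14050659-14063488, minus strand) makes geranylgeranyl diphosphate from farnesyl diphosphate. It had 30.5, 31.5 and 38.3 CPM in controls 1, 2 and 3, against 31.4, 33.5 and 40.1 CPM in the same-numbered cholesterol samples. Sample 3 was the highest in both groups, and the groups overlapped over most of their range. The means were 33.4 ± 4.25 and 35.0 ± 4.51 CPM (SD, n = 3). The log2 fold change was 0.07 (SE 0.13, 95% CI -0.25 to 0.38). Within the pairs Ggps1 was higher with cholesterol in 3 of 3, by 0.04, 0.09 and 0.07 on the log2 scale. With the block the estimate was again 0.07, its interval narrowed to -0.06 to 0.19, and the adjusted p of edgeR was 0.608.

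Fdft1, squalene synthase, had 189, 162 and 126 CPM in the controls and 76.8, 80.9 and 94.2 CPM with cholesterol, a log2 fold change of -0.92 (SE 0.16). Fdps had 207.8, 149 and 75.5 CPM in the controls and 51.5, 37.3 and 37.0 CPM with cholesterol, a log2 fold change of -1.78 (SE 0.37). For both genes every treated sample lay below every control. Neither gene passed the adjusted threshold of edgeR with condition alone or with the block (adjusted p 0.266 for Fdft1 and 0.164 for Fdps with the block), and both passed it in DESeq2 (adjusted p 9.5e-05 and 0.000175).

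Because FPKM values are per length, they allow the enzymes to be set against each other in a sample. Per Ggps1 FPKM there were 6.29, 5.07 and 3.31 FPKM of Fdft1 in controls 1, 2 and 3, against 2.31, 2.35 and 2.23 in the same-numbered cholesterol samples. The treated samples lay close together and below all controls. On the log2 scale the ratio of Ggps1 to Fdft1 was -2.24 ± 0.47 in the controls and -1.20 ± 0.04 with cholesterol (SD, n = 3), a difference of 1.04, or 2.06-fold. The exact permutation test over the 6 samples gave a two-sided p of 0.1, which is the smallest p that 3 against 3 samples allow. Fdft1 by itself was already separate between the groups and Ggps1 differed little, so this p is no further support. The difference was positive in 3 of 3 pairs, with 1.44, 1.11 and 0.57. It came to 0.97 when CPM were used in place of FPKM. The FPKM ratio of Fdps to Ggps1 was 20.7, 14.0 and 5.95 in the controls and 4.66, 3.24 and 2.64 with cholesterol, again with no overlap and with control 3 nearest to the treated samples.

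**Figure D3:**
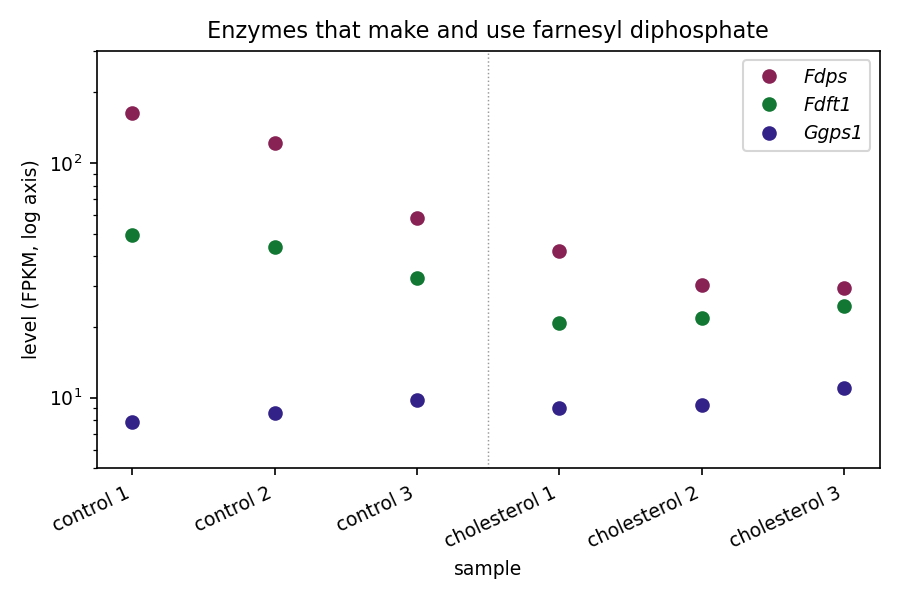
Level in FPKM, on a log axis, of Fdps, which makes farnesyl diphosphate, and of Fdft1 and Ggps1, which use it, in each of the 6 samples. Fdps has 163 FPKM in control 1 and 29.2 FPKM in cholesterol 3, Fdft1 has 49.4 and 24.7 FPKM there, and Ggps1 lies between 7.86 and 11.1 FPKM.

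Protein prenylation was represented by 4 further genes. Fnta is the alpha subunit shared by the farnesylating and the type I geranylgeranylating enzyme, Fntb and Pggt1b are the beta subunits that give these enzymes their lipid substrate, and Icmt methylates the prenylated cysteine at the end of the maturation. The shared subunit Fnta (chr8:25998722-26015650, minus strand) had 38.3, 36.0 and 31.4 CPM in the controls and 36.5, 37.8 and 27.2 CPM with cholesterol. The number 3 samples were the lowest of their groups, and the groups overlapped. The log2 fold change was -0.06 (SE 0.15, 95% CI -0.42 to 0.30).

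The farnesyl-specific subunit Fntb (chr12:76765589-76921412, plus strand) had 73.0, 70.7 and 67.5 CPM in the controls and 70.0, 75.7 and 70.7 CPM with cholesterol. No sample stood apart. Its log2 fold change was 0.04 (SE 0.07, 95% CI -0.13 to 0.20). The geranylgeranyl-specific subunit Pggt1b had 38.3, 43.0 and 34.2 CPM in the controls and 41.0, 43.3 and 35.6 CPM with cholesterol. In both groups sample 2 was the highest and sample 3 the lowest. The log2 fold change was 0.05 (SE 0.12, 95% CI -0.23 to 0.33), and Pggt1b was higher with cholesterol in 3 of 3 pairs, by 0.10, 0.01 and 0.06. Icmt (chr4:152297227-152307121, plus strand) had 34.4, 36.4 and 34.0 CPM in the controls and 34.9, 32.9 and 34.9 CPM with cholesterol. These 6 values were within the same narrow range, and the log2 fold change was -0.03 (SE 0.07, 95% CI -0.19 to 0.14).

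In the dolichol branch, Dhdds is the catalytic subunit of the cis-prenyltransferase that builds the polyprenyl chain, and Dolk is the kinase that makes dolichyl phosphate. Dhdds (chr4:133969028-134000918, minus strand) had 37.4, 40.6 and 40.8 CPM in the controls and 37.6, 39.2 and 38.2 CPM with cholesterol. The treated samples lay inside the range of the controls, with a log2 fold change of -0.05 (SE 0.07, 95% CI -0.21 to 0.12). Dolk (chr2:30284231-30286334, minus strand) had 6.93, 6.83 and 6.13 CPM in the controls and 5.47, 6.82 and 7.36 CPM with cholesterol. The treated samples included both the lowest and the highest of the 6 values. Its log2 fold change was -0.02 (SE 0.16, 95% CI -0.41 to 0.38), and the pairs went different ways, with -0.34 in pair 1 and 0.27 in pair 3.

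In the ubiquinone branch, Pdss1 and Pdss2 are the subunits of the synthase of the polyprenyl tail, and Coq2 joins the tail to the ring. Pdss1 (chr2:22895522-22940266, plus strand) had 10.8, 8.86 and 11.6 CPM in the controls and 11.3, 11.2 and 11.5 CPM with cholesterol. Control 2 was the lowest of the 6, and the other 5 lay close together. Its log2 fold change of 0.12 (SE 0.13, 95% CI -0.19 to 0.44) was the largest in size among the 10, with an unadjusted p of 0.385 in edgeR and 0.226 with the block. It rested on control 2: without that sample it was 0.019, smaller than those of Pggt1b (0.14) and Pdss2 (-0.12) in the same fit. Pdss2 (chr10:43221486-43464882, plus strand), which acts in a complex with Pdss1, had 8.85, 7.48 and 7.27 CPM in the controls and 8.63, 7.56 and 5.98 CPM with cholesterol. The groups overlapped, and cholesterol 3 was the lowest of the 6. The log2 fold change was -0.09 (SE 0.18, 95% CI -0.52 to 0.34). Coq2 (chr5:100654723-100675140, minus strand) had 22.1, 22.9 and 22.5 CPM in the controls and 21.8, 22.4 and 22.1 CPM with cholesterol. It was lower with cholesterol in 3 of 3 pairs, but by only -0.02, -0.03 and -0.02, and its log2 fold change was -0.02 (SE 0.07, 95% CI -0.19 to 0.15).

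Counting pairs over all 10, Ggps1 and Pggt1b were higher with cholesterol in all 3 pairs and Coq2 was lower in all 3. Over all genes 19.9% were higher and 20.1% lower in all 3 pairs, so 2 and 1 of 10 were near the background. The replicate number itself, tested with edgeR in the block model after the values had been seen, was called for 3 of the 10: Ggps1 (adjusted p 0.00148), Fnta (0.00166) and Pggt1b (0.00448). Over all genes 46.3% were called for the replicate number, and the share of 3 in 10 was not tested against it. Sample 3 was the highest for Ggps1 and the lowest for Fnta and Pggt1b, in both groups, and the number 3 samples also held the largest sums of granulocyte and macrophage markers. What part those cells had in the order was not tested.

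Per length, the farnesyltransferase subunits were the most abundant of the 10. Mean FPKM over the 6 samples were 27.7 ± 1.52 for Fntb, 18.2 ± 2.54 for Fnta, 12.9 ± 0.388 for Coq2, 12.3 ± 0.509 for Dhdds and 9.27 ± 1.08 for Ggps1 (SD, n = 6). Below them stood Icmt with 6.84 ± 0.311 FPKM, Pggt1b with 5.22 ± 0.598, Pdss1 with 4.73 ± 0.458, Pdss2 with 3.71 ± 0.534 and Dolk with 3.06 ± 0.310. The ranges of Coq2 and Dhdds overlapped, as did those of Pggt1b and Pdss1, of Pdss1 and Pdss2, and of Pdss2 and Dolk, while the other neighbours in this order were separate. The order spans the middle of the genes tested, from the percentile of 77.2 for Fntb to that of 33.8 for Dolk.

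Of the 10 genes, Ggps1 was the one for which the fold changes on the CPM and FPKM scales lay farthest apart. On the FPKM scale its log2 difference was 0.16, with 7.86, 8.62 and 9.75 FPKM in the controls and 9.03, 9.33 and 11.1 FPKM with cholesterol, against 0.07 on the CPM scale. The CPM carry TMM scaling and the FPKM do not, so other genes differ between the scales too. Icmt, for example, had -0.03 on the CPM scale and 0.002 on the FPKM scale. The count and the FPKM of a gene together imply the transcript length that was used for it, which in RSEM is an average over the transcripts of the gene weighted by their estimated abundance. For Ggps1 this implied length was 3825, 3723 and 3790 bases in the controls and 3562, 3662 and 3577 bases with cholesterol. All treated values lay below all control values, with means of 3779 ± 51.6 and 3600 ± 54.0 bases (SD, n = 3), 4.73% shorter with cholesterol. Among 7632 genes with at least 2 FPKM in every sample, 131 (1.72%) had a shift of at least that size, and 7.40% had groups that did not overlap. Ggps1 was named after the shifts of all 10 genes had been seen, as the largest of them. The 7632 genes include some with 1 annotated transcript, such as Dolk, so the share among genes with several transcripts may differ.

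Of the 10 genes, 2 had implied lengths without overlap, Ggps1 and Coq2, but for Coq2 the lengths were 1732 to 1735 bases in the controls and 1730 to 1731 bases with cholesterol, a difference near the rounding of the FPKM values. Pdss1 varied most among samples, by 13.8% of its mean, with both number 3 samples the longest, and its groups overlapped. Pggt1b had 7209 bases in cholesterol 3 and between 7559 and 7628 in the other samples, and Pdss2 varied by 5.63%. The other 5 genes varied by less than 1% each. GENCODE (GRCm38) lists 11 transcripts of Ggps1, from 459 to 4244 bases, so several mixtures could give these lengths, and the values do not say which transcripts were involved. The implied lengths of Dolk, Pdss1 and Icmt exceeded the longest GENCODE transcript of the gene in every sample, so the transcripts behind the deposited tables may be others than these, and only differences between samples are read here. Expected counts of Ggps1, Pdss1, Pdss2, Pggt1b and Icmt were not whole numbers in all samples, as RSEM gives where reads are shared out between genes, and those of the other 5 genes were whole.

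**Figure D4:**
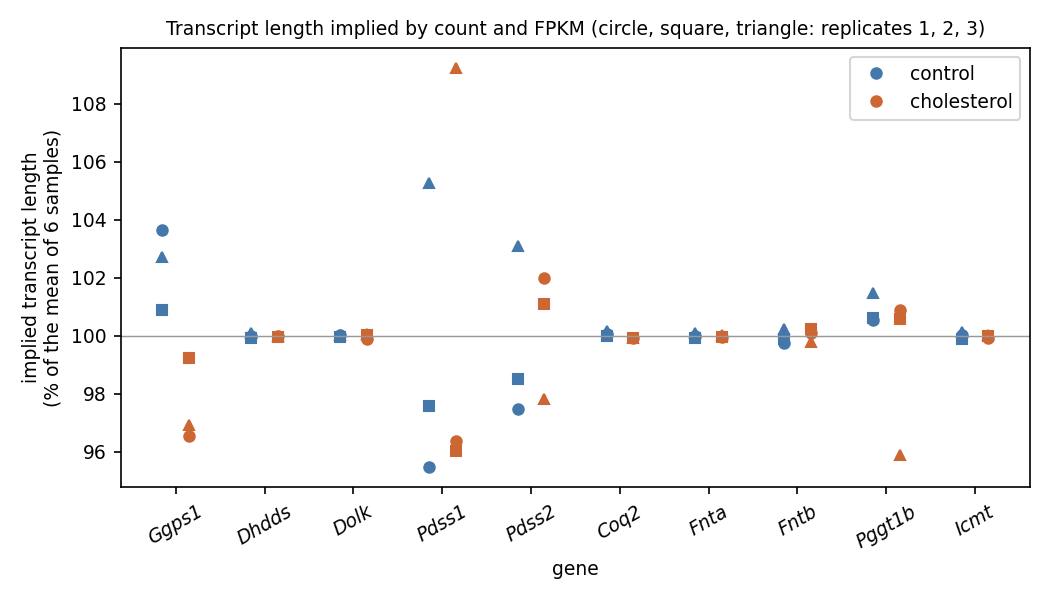
Transcript length implied by expected count and FPKM, as a percentage of the mean of the 6 samples, for each of the 10 genes; blue is control, orange is cholesterol, and circles, squares and triangles are replicates 1, 2 and 3. For Ggps1 all 3 cholesterol samples lie below all 3 controls, and 6 genes lie close to 100% in every sample.

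Some of the 10 genes also overlap neighbours on the genome, and whether strand was used in the counting is not stated in the sources used here. In GENCODE, Ggps1 shares 257 exonic bases with Arid4b, Pdss1 shares 194 with Abi1 and 207 with the pseudogene A130006I12Rik, and Icmt shares 103 with Rnf207, each on the opposite strand. Fntb shares 257 exonic bases with Churc1, and Pdss2 shares 33 with Gm47856, on the same strand. Reads in these bases could belong to either gene of a pair. The expected counts of Fntb were whole in every sample, so they show no reads shared out between genes.

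The wider branches were read with lists of further genes. Of 11 other genes of prenylation machinery, such as the CAAX protease Rce1 and Rabggtb, a subunit of the enzyme that prenylates Rab proteins, 0 were called with condition alone and 0 with the block, and their median log2 fold change was 0.02. The smallest p belonged to Rce1, which cuts the last residues from prenylated proteins before Icmt acts. It had 19.2, 18.0 and 18.2 CPM in the controls and 16.5, 16.3 and 16.1 CPM with cholesterol. The groups were separate, but the change of -0.18 (SE 0.08) did not pass, with an unadjusted p of 0.0617 and an adjusted p of 0.188 with the block, both from edgeR. Rabggtb (log2 fold change 0.08) and Ptar1 (0.07), the next in rank, had overlapping groups.

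Of 21 other genes of dolichol synthesis and use, from Nus1, the partner of Dhdds, to the ALG glycosyltransferases and the dolichol phosphate mannose synthase, 0 were called in either model, and the median was 0.02. The genes with the smallest p were Alg10b (log2 fold change 0.18), Dolpp1 (0.10), a phosphatase that recycles dolichyl diphosphate, and Alg2 (0.17). Alg10b, the glucosyltransferase that adds the last glucose, was nearest to the threshold, with an adjusted p of 0.0768 in edgeR with the block.

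Of 10 other genes of ubiquinone synthesis, 0 were called with condition alone and 1, Coq10b, was called lower with the block, in which 5.20% of all genes were called lower. The median was 0.02. Coq10b, a lipid-binding protein needed for ubiquinone to work in respiration, had 31.2, 30.5 and 27.7 CPM in the controls and 27.0, 25.2 and 23.6 CPM with cholesterol. Every treated value was below every control. The log2 fold change was -0.24 (SE 0.09), with an unadjusted p of 0.0347 with condition alone and an adjusted p of 0.0286 with the block, both from edgeR. Coq9 (log2 fold change 0.09) had higher values in every treated sample and was not called, and Coq8a (-0.46) was measured at about 1 CPM with overlapping groups. Of other users of isoprenoids, 2 genes had positive fold changes and overlapping groups, Cox10 (0.14), which farnesylates heme, and Trit1 (0.10), which prenylates transfer RNA.

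Among genes of proteins that carry a prenyl group, 36 were listed and 35 tested, Gng11 falling under the filter. With condition alone 0 of the 35 were called and 1 had an unadjusted p under 0.05, and 29 of the 35 fold changes were negative, with a median of -0.05. Over all genes 5405 of 11277 fold changes were negative, with a median of 0.01. With the block 4 of the 35 were called lower and 0 higher, beside 5.20% and 1.65% of all genes. Rac2, a small GTPase of blood cells, had 197, 184 and 181 CPM in the controls and 172, 163 and 138 CPM with cholesterol, a log2 fold change of -0.25 (edgeR adjusted p 0.00242 with the block). Lmna, which encodes lamin A and C, had 434, 393 and 443 CPM in the controls and 382, 355 and 390 CPM with cholesterol, a log2 fold change of -0.17 (edgeR adjusted p 0.0114 with the block). For both genes the groups were separate.

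Ralb, a Ras-like GTPase, had 11.7, 9.81 and 7.99 CPM in the controls and 9.66, 7.16 and 4.60 CPM with cholesterol, so that it was lower in each pair although the groups overlapped (edgeR adjusted p 0.0185 with the block). Gng2, a G protein gamma subunit, had 0.657, 1.88 and 7.16 CPM in the controls and 0.049, 1.23 and 2.56 CPM with cholesterol (edgeR adjusted p 0.0166 with the block). Cholesterol 1 was below 3 counts for Gng2, so no fold is given, and its values followed the replicate number in the same order as the granulocyte marker sums. All 9 granulocyte markers were likewise called lower with the block. Rap1b, with a log2 fold change of -0.15, did not pass (edgeR adjusted p 0.0597 with the block). Rhob, whose transcript is known to respond when prenylation is blocked, had 16.6, 12.9 and 14.0 CPM in the controls and 17.0, 11.4 and 10.8 CPM with cholesterol. Its groups overlapped and the pairs went different ways, and the log2 fold change was -0.15 (SE 0.20, edgeR adjusted p 0.378 with the block).

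**Figure D5:**
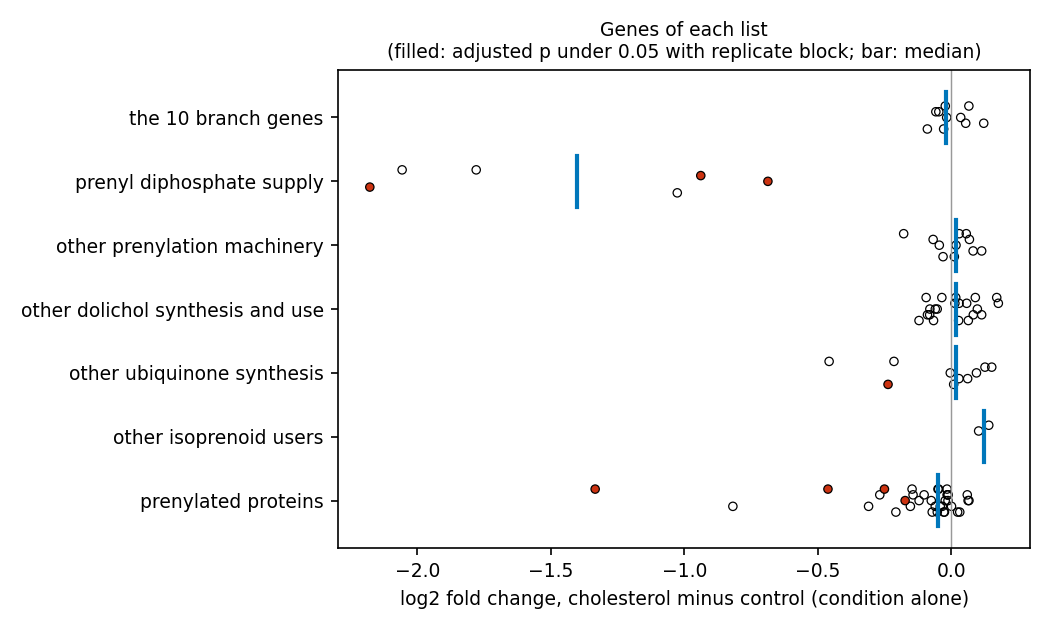
Log2 fold change (cholesterol minus control, condition alone) of every tested gene of the 10 branch genes, the 6 supply enzymes and the 5 further lists; filled points passed an adjusted p of 0.05 with the replicate block and blue bars are medians. The median is -1.40 for the supply enzymes and between -0.05 and 0.12 for the other 6 lists.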

How the data were processed

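Poly(A) RNA of 6 samples was sequenced as single-end reads. The authors deposited expected counts per gene (estimated by RSEM, not normalized, 27.9% to 29.5% of values per sample not whole) and normalized values without a named unit. The deposited normalized values were taken as FPKM, because count, FPKM and library total gave lengths near those annotated. The submitters' processing notes name HISAT2 2.0.4, Bowtie2 2.2.5, RSEM 1.2.12, DESeq2 1.4.5 and GRCm38.p6, and the annotation and strand setting are not given in the sources used here.

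Expected counts were rounded, filtered by filterByExpr (minimum count 10, minimum total 15), scaled by TMM and tested with the robust quasi-likelihood test of edgeR 4.0.16 in R 4.3.3 (two-sided, Benjamini-Hochberg over 11277 genes, threshold 0.05), with condition alone. CPM are after TMM scaling. SEs and confidence intervals come from the same model. Of 17463 genes, 878 were at 0 in every sample. The block used the replicate numbers of the labels: deviations from the group means correlated within same-numbered samples with 0.738, 0.360 and 0.836, so the numbers were taken as pairs. No 2 libraries were copies (lowest chi-square per degree of freedom 9.85). Alternatives were the block, DESeq2 1.42.0, RLE scaling, other filters, limma 3.58.1 on log2(FPKM + 1) or log2(FPKM + 0.1), and samples or pairs left out. Both models, with condition alone and with the block, were run on simulated counts with known folds. The simulation for condition alone held no differences between replicate numbers, unlike these samples, so no conclusion is drawn from it here. The implied length (count per FPKM and library total) and the test of the replicate number were added after the data had been seen.

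Named genes were the 10, the supply enzymes and Fdft1, in each further list the 3 smallest p and all genes called with the block, and Rhob. The 10 genes and all lists were chosen with earlier results of these data known. Gene positions are from GENCODE and promoters from RefSeq. The position of Pggt1b and the values of some genes of the lists are not reported here. The limit of 3 counts covers counting error only.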

Additional observations from a re-analysis of the deposited data

How the results depend on the processing

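The count of branch genes called was 0 under every alternative run, and over these alternatives, the block fits with a pair left out included, the log2 fold changes of the 10 genes lay between -0.22 and 0.20 with a smallest adjusted p of 0.442 (Pdss1 in the block fit without pair 3). Over all genes, the count called higher was 1 with condition alone, 186 with the replicate block and 3 with DESeq2, and the count called lower was 0, 586 and 28. Leaving out 1 sample gave 0 to 7 genes called lower, 7 without control 3 and 1 without cholesterol 3. With the block, leaving out a pair gave 67 to 210 genes higher and 229 to 703 lower, the fewest without pair 2. The block changed no call among the 10.

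With effects this small, signs changed. The median of the 10 was 0.0067 and 0.0070 in limma on log2(FPKM + 1) and log2(FPKM + 0.1), -0.0242 to 0.0122 with 1 sample left out, and -0.0081 to 0.0061 in the block fit with a pair left out. In limma the values turned positive for Dolk (0.0042 and 0.0042), Coq2 (0.0091 and 0.0098) and Icmt (0.0018 and 0.0022). The limma fits used FPKM without TMM scaling, whose factors ran from 0.965 (control 3) to 1.02 (cholesterol 1). With 1 sample left out the log2 fold changes ranged from -0.039 to 0.18 for Ggps1, -0.082 to -0.024 for Dhdds, -0.11 to 0.10 for Dolk, 0.019 (without control 2) to 0.20 for Pdss1, -0.035 to -0.0084 for Coq2, -0.22 to 0.044 for Pdss2, -0.15 to 0.080 for Fnta, -0.0030 to 0.066 for Fntb, -0.024 to 0.14 for Pggt1b and -0.048 to 0.0030 for Icmt. In the block fit with a pair left out Dolk ranged from -0.17 to 0.13, Icmt from -0.063 to 0.029, Fnta from -0.13 to -0.0017, Fntb from 0.0033 to 0.085, Dhdds from -0.069 to -0.024, Pggt1b from 0.035 to 0.078, Ggps1 from 0.055 to 0.078, Coq2 from -0.025 to -0.019, Pdss2 from -0.15 to -0.013 and Pdss1 from 0.026 (without pair 2) to 0.20. The cause was not tested. The difference (cholesterol minus control) of the log2 ratio of Ggps1 to Fdft1 lay between 0.83 and 1.30 with a sample left out, and sign flips of its 3 pair differences give no p below 0.25. The number of samples, 3 in a group, limits the precision to the intervals given.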
